A study of Mus musculus with 14 samples.

Results

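Solute carrier genes encode the membrane proteins that move amino acids, sugars, ions, vitamins, metals and metabolites across the cell surface and the membranes of mitochondria and vesicles. Members were the genes of the deposited table whose mouse symbol is Slc, a family number, the letter a and a member number, after leaving out 11 genes (Slc1a2, Slc1a3, Slc2a1, Slc2a3, Slc16a1, Slc16a3, Slc16a7, Slc7a11, Slc40a1, Slc11a2 and Slc25a20). This gave 212 members among 15119 listed genes. Another 28 listed genes have symbols that begin with Slc but carry another letter, such as Slco genes, and were outside the rule. Of the 212 members, 5 share the symbol pattern without being transporters (Slc9a3r1, Slc9a3r2, Slc4a1ap, Slc7a6os and the pseudogene Slc2a4rg-ps), and they are counted as a group of their own.

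The libraries came from GFP-positive cells of the dentate gyrus, the part of the hippocampus that makes neurons in adult life, taken from untreated B6.Cg-Tg(Nes-EGFP)1Yamm mice. In this strain a nestin promoter drives enhanced GFP, so a cell enters the sort through the transgene's promoter and not through nestin protein. Dihydroethidium, a dye that becomes fluorescent when oxidised, split the GFP-positive cells into 3 classes of rising reactive oxygen species (ROS) content, named ROS+ (5 libraries), ROS++ (5 libraries) and ROS+++ (4 libraries). Every class carries the same transgene and none was treated. The labels give no age, sex or pooling, and do not say whether libraries of 1 class came from separate animals. The spread behind each p-value is thus that between libraries and may be technical.

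The cell surface of a neural precursor holds transporters for the amino acids, glucose, choline and ions that growth and division use. In brain, different cell types are known for different carriers: neurons for vesicular and synaptic transporters, astrocytes for uptake of glutamate, GABA and urea, and the cells of vessels and meninges for organic anion, imino acid and vitamin transport. Mitochondrial carriers of the SLC25 family exchange ADP, ATP, phosphate, aspartate, glutamate and other metabolites across the inner membrane.

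The libraries held 12704227 to 25313902 reads on listed genes, so 3 reads, the limit that a count of 0 allows, correspond to 0.119 to 0.236 CPM (CPM scales reads to the library total over listed genes). Over the 26 pairs of libraries of 1 class, chi-square divided by its degrees of freedom ran from 32.8 to 157, above sampling noise, so no library was counted as a duplicate. Marker genes of other cell types differed strongly between the classes. The summed level of 12 mural (pericyte and smooth muscle) markers was 201 to 715 CPM in ROS+, 8085 to 24314 CPM in ROS++ and 53069.7 to 61822 CPM in ROS+++. For 10 neuroblast and immature neuron markers the sum was 11372 to 16844 CPM in ROS+, 929 to 2312 CPM in ROS++ and 36.7 to 199 CPM in ROS+++. For 12 radial glia-like stem cell and astrocyte markers it was 1320.3 to 2003 CPM in ROS+, 6209 to 8872 CPM in ROS++ and 2865 to 7645 CPM in ROS+++, and for 11 microglia and macrophage markers 3.57 to 16.7 CPM in ROS+, 939.6 to 2513 CPM in ROS++ and 755 to 3159 CPM in ROS+++. The endothelial sum (9 markers) was 81.1 to 266 CPM in ROS+, 186 to 567 CPM in ROS++ and 1269 to 1501 CPM in ROS+++, with 4 markers higher and none lower in ROS+++ than in ROS+. Esam and Emcn gave 940 and 261 CPM of the mean sum of 1387 CPM in ROS+++. Pecam1, Cldn5 and Cdh5 averaged 15.1, 2.47 and 2.34 CPM in ROS+ and 11.7, 3.22 and 4.4 CPM in ROS+++. Of 6 oligodendrocyte precursor markers 5 were lower in ROS+++ than in ROS+ and in ROS+++ than in ROS++, with sums of 1869 to 2673 CPM in ROS+, 1941 to 3552 CPM in ROS++ and 481 to 725 CPM in ROS+++. All 7 myelinating oligodendrocyte markers and all 8 proliferating progenitor markers were lower in ROS+++ than in ROS++. Their sums were 1861 to 5243 CPM in ROS+, 1916 to 9960.3 CPM in ROS++ and 454 to 631 CPM in ROS+++ for the myelinating list, and 220.4 to 467 CPM in ROS+, 653 to 1132 CPM in ROS++ and 105 to 215 CPM in ROS+++ for the progenitor list. Leptomeningeal fibroblast markers (8 measured) had 3 higher and 1 lower in ROS+++ than in ROS++, and of 7 mature neuron markers 6 were lower in ROS+++ than in ROS+. None of 8 choroid plexus and ependymal markers was among the listed genes. In sorted bulk samples, fewer cells of a type and less RNA per cell cannot be told apart.

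Upstream sequences are shown for the 3 members with the largest differences between ROS+++ and ROS+ that have a single start in RefSeq, Slc6a20a, Slc38a11 and Slc22a8, and for 1 of the largest decreases, Slc1a1. RefSeq (GRCm38.p6) has a promoter entry for 165 of the 212 members. Each run is the 250 bases before the start, 5′ to 3′ on the gene's strand, with capitals marking matches to the GC box GGGCGG or its reverse complement. The windows lie at chr9:123678833-123679082 (minus strand), chr2:65364027-65364276 (minus strand), chr19:8592932-8593181 (plus strand) and chr19:28834885-28835134 (plus strand). GENCODE M21 gives each of the 4 genes an outermost start upstream of the RefSeq one, so part or all of each window lies within its GENCODE span.
Slc6a20a: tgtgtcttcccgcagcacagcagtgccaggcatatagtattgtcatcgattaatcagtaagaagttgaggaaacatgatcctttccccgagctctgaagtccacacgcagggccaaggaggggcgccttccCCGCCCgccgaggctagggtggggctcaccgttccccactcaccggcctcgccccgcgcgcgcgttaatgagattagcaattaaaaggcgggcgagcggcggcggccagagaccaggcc
Slc38a11: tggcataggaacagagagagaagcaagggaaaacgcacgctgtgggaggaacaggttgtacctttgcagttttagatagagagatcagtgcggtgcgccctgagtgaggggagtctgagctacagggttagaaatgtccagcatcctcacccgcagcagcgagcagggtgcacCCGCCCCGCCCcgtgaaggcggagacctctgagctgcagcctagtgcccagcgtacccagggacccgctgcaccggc
Slc22a8: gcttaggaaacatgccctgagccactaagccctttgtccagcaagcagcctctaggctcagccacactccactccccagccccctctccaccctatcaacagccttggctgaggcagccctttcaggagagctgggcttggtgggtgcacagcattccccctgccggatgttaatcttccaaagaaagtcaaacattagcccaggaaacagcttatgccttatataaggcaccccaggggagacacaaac
Slc1a1: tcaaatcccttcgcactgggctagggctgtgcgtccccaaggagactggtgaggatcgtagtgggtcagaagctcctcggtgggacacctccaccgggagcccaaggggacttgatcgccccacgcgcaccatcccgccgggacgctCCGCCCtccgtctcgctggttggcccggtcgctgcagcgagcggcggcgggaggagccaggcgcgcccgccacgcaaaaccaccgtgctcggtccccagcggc
Searched on both strands, the GC box occurred 1 time in the Slc6a20a window, 2 times in the Slc38a11 window, 1 time in the Slc1a1 window and not in the Slc22a8 window, and 32.7% of all 32851 windows of this length hold it. None of the 4 windows held TATAAA (in 12.4% of all windows), the AP-1 site TGANTCA (6.75%), the antioxidant response element TGACNNNGC (10.2%) or the E-box CANNTG (66.2%). The GC content of the windows was 61.2% for Slc6a20a, 60.8% for Slc38a11, 55.2% for Slc22a8 and 70.4% for Slc1a1, against a median of 52.4% over all windows. Their CpG counts were 21 for Slc6a20a, 13 for Slc38a11, 1 for Slc22a8 and 27 for Slc1a1, against a median of 6. The riser Slc22a8 thus had the fewest CpG of the 4, and the others had more than the median.

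All 212 members passed the filter on low values, which asked for at least 1 CPM in at least 4 libraries, and were tested with limma on log2(CPM + 1) over all 15102 genes that passed. A gene was called when its p-value, adjusted over all these genes by Benjamini-Hochberg, was under 0.05. Differences are given on the log2(CPM + 1) scale, which understates the change of genes at low levels. Between ROS++ and ROS+, 44 members were called higher and 22 lower, where 16.4% of all genes tested were called higher and 13.2% lower, so 20.8% and 10.4% of the members moved in each direction. Without ROS+ replicate 2, 3, 4 or 5, or without ROS++ replicate 1, the 22 lower calls became 13, 14, 14, 12 and 13. Between ROS+++ and ROS+, 50 members were higher and 88 lower, against 19.2% of all genes higher and 40.0% lower. Between ROS+++ and ROS++, 24 members were higher and 66 lower, against 9.89% and 29.2% of all genes. The median difference over the members was 0.07, -0.49 and -0.42 in the 3 comparisons, beside -0.03, -0.44 and -0.34 over all genes tested. The shares and medians of the members lay near those of all genes. Class means below are CPM ± SD in the order ROS+, ROS++ and ROS+++ (n = 5, 5 and 4).

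The split of calls that involve ROS+++ depended on how libraries were scaled. Higher members made up 36.2% of those called between ROS+++ and ROS+ when library totals set the scale, 51.2% (65 higher, 62 lower) with relative log expression factors, 46.1% (59 and 69) with upper-quartile factors and 49.6% (63 and 64) with trimmed mean of M values factors. Between ROS+++ and ROS++, the shares higher were 26.7% with library totals and 48.8% (40 higher, 42 lower), 40.0% (32 and 48) and 43.9% (36 and 46) with those 3 scalings. These scalings moved the median of all genes up by 0.40, 0.27 and 0.34 between ROS+++ and ROS+, by 0.37, 0.25 and 0.29 between ROS+++ and ROS++, and by at most 0.04 between ROS++ and ROS+. A decrease smaller than these shifts is therefore relative to the scale chosen. Counts per substrate group are with library totals, and those with the other 3 scalings follow in the order relative log expression, upper-quartile and trimmed mean of M values factors where they change which direction has more calls or turn a count of none.

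A moderated F-test over the 3 classes called 141 of the 212 members, beside 61.5% of all genes. Among the members called, 61 had the order ROS+ > ROS++ > ROS+++ of mean log2(CPM + 1) (28.8% of members, 28.3% of all genes) and 42 had the order ROS+++ > ROS++ > ROS+ (19.8% of members, 14.8% of all genes). Mean log2(CPM + 1) was highest in ROS++ for 37 members, of which 23 were lowest in ROS+++ (10.8% of members, 9.95% of all genes) and 14 lowest in ROS+ (6.604% of members, 4.56% of all genes). A single member (0.472%) was highest in ROS+ and lowest in ROS++, an order held by 2.62% of all genes, and no member was highest in ROS+++ and lowest in ROS++, an order held by 1.28%.

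**Figure D1:**
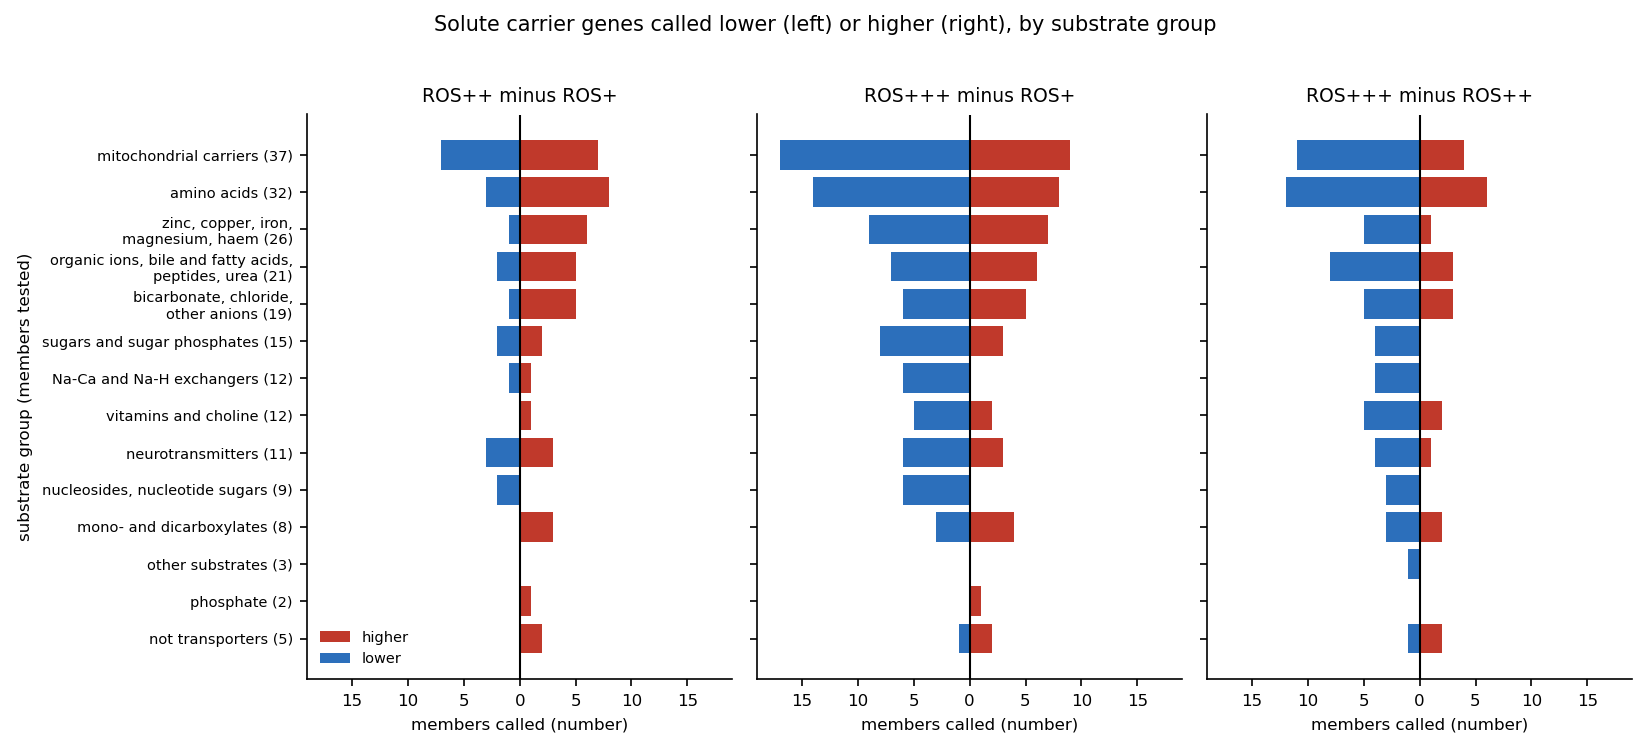
Number of members called higher (red, to the right) and lower (blue, to the left) in each substrate group, in each of the 3 comparisons, with the number tested in parentheses. In ROS+++ minus ROS+ the mitochondrial carriers have 17 lower and 9 higher, and the nucleoside group and the Na-Ca and Na-H exchangers have 6 lower each and none higher. The lower calls are 45.9%, 66.7% and 50% of these groups, beside 40.0% of all genes. All are with library totals, and the other 3 scalings shift these counts.

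Group medians of the log2 differences between ROS+++ and ROS+ ran from -1.13 for the sodium-calcium and sodium-proton exchangers and -0.96 for sugar carriers to 0.71 for the 2 phosphate carriers and 1.06 for carboxylate carriers, beside -0.44 over all genes. Those of organic ion carriers (-0.16) and metal carriers (-0.15) were positive under the other 3 scalings. In ROS+++ against ROS++ the medians ran from -0.74 for the exchangers to 0.39 for the genes that are not transporters, beside -0.34 over all genes. There the medians of metal carriers (-0.24) and phosphate carriers (-0.23) were positive under the other 3 scalings, and that of mitochondrial carriers (-0.32) under relative log expression and trimmed mean of M values factors. Between ROS++ and ROS+ they ran from -0.20 for the exchangers to 0.94 for phosphate, beside -0.03 over all genes, and no group median changed sign with scaling.

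Reads on the members summed to 9780 to 10756 CPM in ROS+, 11755 to 12077 CPM in ROS++ and 13839.9 to 15235 CPM in ROS+++, without overlap between the classes. Slc6a20a, Slc22a8 and Slc19a1 together made up 47.2 to 84.7 CPM of this in ROS+, 657 to 1373 CPM in ROS++ and 3935 to 4912 CPM in ROS+++. Without them the remaining members summed to 10178 ± 393, 10976 ± 281 and 9904 ± 339 CPM (mean ± SD; n = 5, 5 and 4), with ROS+++ and ROS+ overlapping. Per kilobase of exon, the 2 ADP/ATP carriers had the highest levels of all members in every class. Next in ROS+++ came Slc19a1 at 368, Slc6a20a at 344 and Slc22a8 at 318 CPM per kilobase. In ROS+ the next were Slc25a17, a peroxisomal carrier, at 125 and Slc50a1, a sugar carrier, at 71.1 CPM per kilobase.

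**Figure D2:**
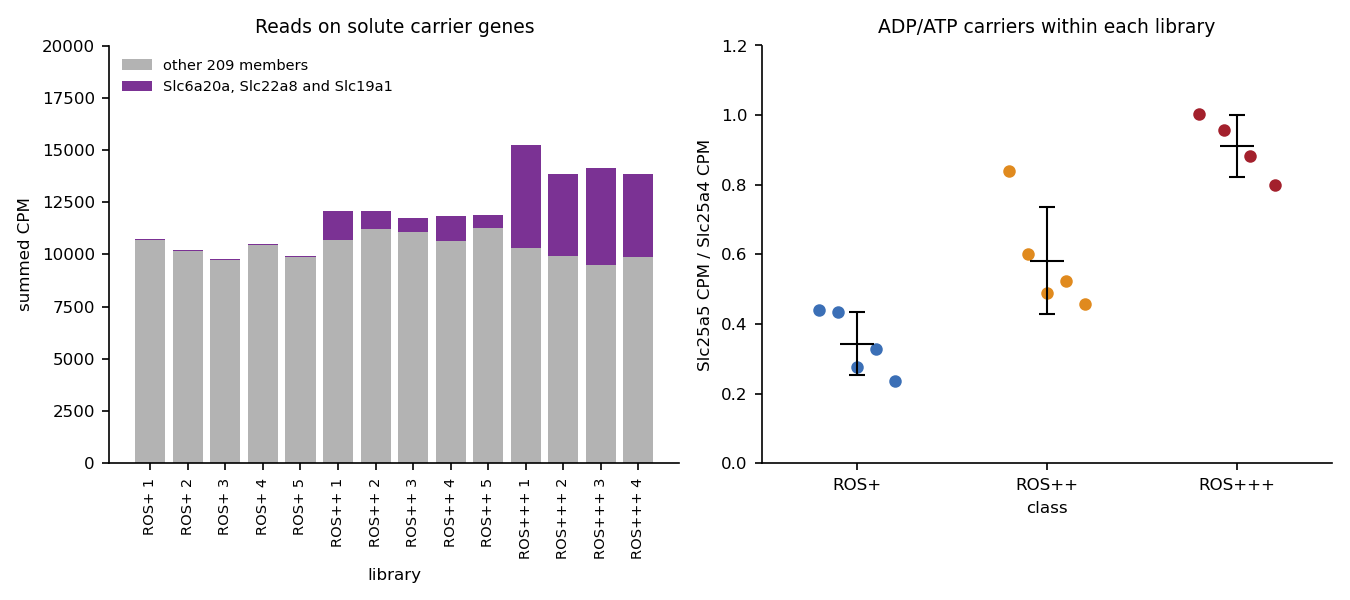
Left, summed CPM of the members in each of 14 libraries, with Slc6a20a, Slc22a8 and Slc19a1 in purple on top of the other members in grey. Right, CPM of Slc25a5 divided by CPM of Slc25a4 in each library (points), with the class mean and SD; the ROS+++ libraries lie at 0.80 to 1.0 and the ROS+ libraries at 0.238 to 0.441.

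Amino acid carriers held members that rose with ROS content and members that fell. Of 32 members, 8 were higher and 3 lower between ROS++ and ROS+, 8 higher and 14 lower between ROS+++ and ROS+, and 6 higher and 12 lower between ROS+++ and ROS++. Between ROS+++ and ROS+ these are 25% higher and 43.8% lower, near the 19.2% and 40.0% of all genes. Between ROS+++ and ROS++ they are 18.8% and 37.5%, beside 9.89% and 29.2% of all genes. The group's median difference was 0.05, -0.06 and -0.67 in these comparisons, and that between ROS+++ and ROS+ was positive under the other 3 scalings (0.22 to 0.36). Counts between ROS+++ and ROS++ became 9 higher and 8 lower, 7 higher and 8 lower, and 8 higher and 8 lower with these.
The leading member was Slc6a20a (chromosome 9, bases 123634770 to 123678885, minus strand, mm10), a sodium- and chloride-dependent transporter of proline and other imino acids. Slc6a20a had 7.35, 0.192, 0.0892, 2.69 and 0.328 CPM in the ROS+ libraries, 510.4, 252, 204, 402 and 184 CPM in the ROS++ libraries and 1621, 1325, 1507 and 1167 CPM in the ROS+++ libraries. All ROS+++ libraries lay above all ROS++ libraries, and these above all ROS+ libraries. The class means were 2.13 ± 3.11, 311 ± 141 and 1405 ± 200.3 CPM (SD; n = 5, 5 and 4), and the differences were 7.02 ± 0.49 (SE; adjusted p = 8.7e-08) between ROS++ and ROS+, 9.3 ± 0.52 (SE; adjusted p = 1.9e-09) between ROS+++ and ROS+ and 2.28 ± 0.52 (SE; adjusted p = 0.00308) between ROS+++ and ROS++. The last was not called on the log2 values as deposited (adjusted p = 0.077; range over the alternatives 9.09e-07 to 0.077), while the calls against ROS+ held under every alternative run. Exons of the gene Gm17120 overlap 14.3% of its exon length, and the library preparation kept no strand, so reads there cannot be assigned to one gene.
Within ROS++, Slc6a20a was highest in replicates 1 and 4, at 510.4 and 402 CPM. The same libraries had the highest mural marker sums, at 24314, 9929, 9811, 19186 and 8085 CPM in replicates 1 to 5. All 12 mural markers were called higher in ROS++ and in ROS+++ than in ROS+, and 8 of the 12 were higher in ROS+++ than in ROS++, none lower. The part of these markers, and of the leptomeningeal fibroblast markers, in the rise of Slc6a20a was not tested.

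Slc38a11 (chromosome 2, bases 65316430 to 65364034, minus strand), of the SLC38 family of sodium-coupled neutral amino acid carriers, had nearly the same profile. Slc38a11 had 4.54, 0.048, 0.535, 0.554 and 0.0469 CPM in the ROS+ libraries, 162, 77.8, 70.4, 154 and 74.1 CPM in the ROS++ libraries and 355, 422, 385 and 370.4 CPM in the ROS+++ libraries. The classes did not overlap, and ROS+ replicate 1 stood above the other 4 ROS+ libraries. Its differences were 5.89 ± 0.38 (SE; adjusted p = 3.15e-09) between ROS++ and ROS+ and 7.81 ± 0.40 (SE; adjusted p = 4.81e-11) between ROS+++ and ROS+. Between ROS+++ and ROS++ it was 1.92 ± 0.40 (SE; adjusted p = 0.00105), a call that ended on the deposited log2 values (adjusted p = 0.0892; range 3.74e-06 to 0.0892). Slc1a5, the neutral amino acid exchanger known for glutamine uptake in dividing cells, averaged 2.59 ± 1.45, 13.9 ± 4.42 and 49.8 ± 18.6 CPM in the 3 classes and was called higher at both steps, by 2.13 ± 0.38 (SE; adjusted p = 0.000371) and 1.75 ± 0.41 (SE; adjusted p = 0.00235). Slc7a2, a carrier of arginine and lysine, averaged 6.58 ± 3.79, 27.8 ± 15.1 and 65.5 ± 12.9 CPM and was higher in ROS+++ than in ROS+ by 3.32 ± 0.46 (SE; adjusted p = 8.75e-06). Slc1a4, a serine and alanine exchanger, averaged 32.1 ± 9.45, 49.6 ± 13.8 and 101 ± 19.9 CPM, higher in ROS+++ than in ROS++ by 1.04 ± 0.24 (SE; adjusted p = 0.00223). The heavy chain Slc3a2, which carries light chains such as Slc7a5 to the surface, was higher in ROS++ than in ROS+ by 0.86 ± 0.21 (SE; adjusted p = 0.00399) and had no call between ROS+++ and ROS++ (0.21, adjusted p = 0.471).

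**Figure D3:**
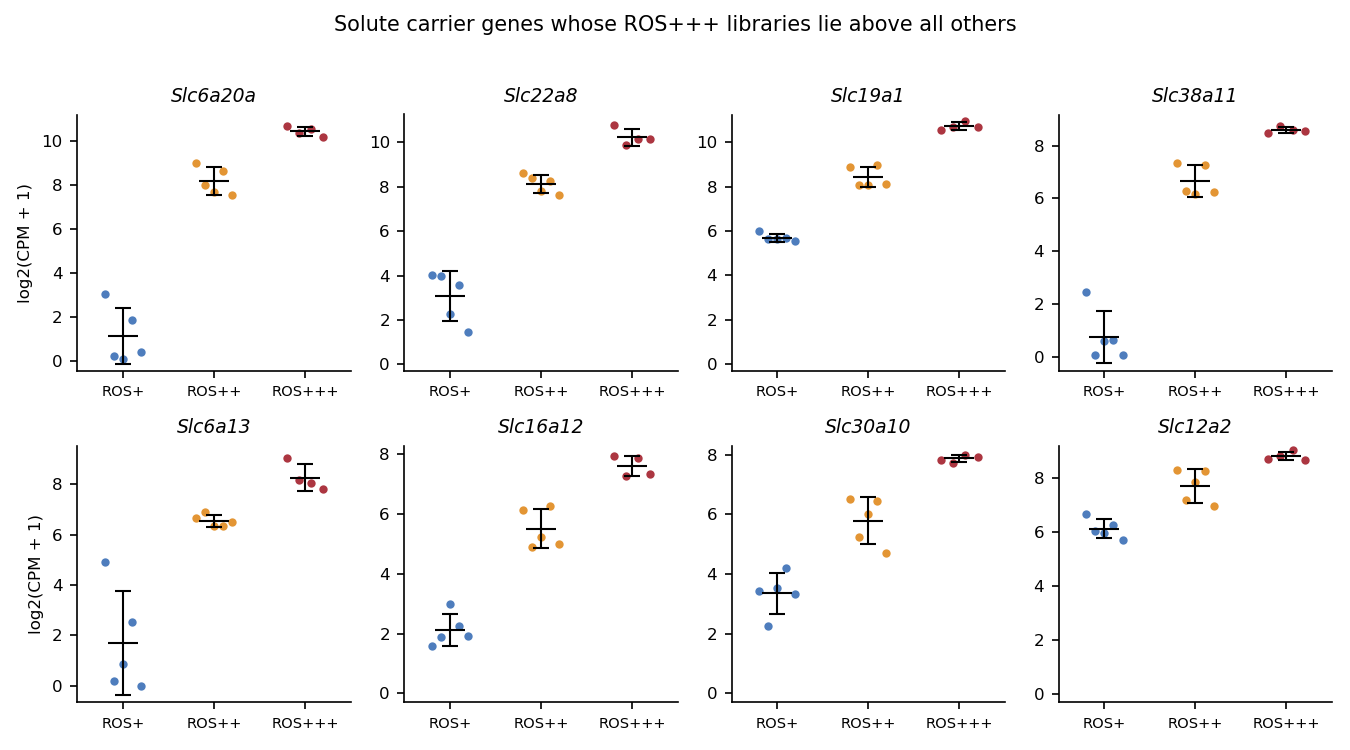
log2(CPM + 1) of 8 members in each library (points) of the 3 classes, with the class mean and SD in black. In each panel the 4 ROS+++ libraries lie above all ROS++ libraries, and the ROS++ libraries above all ROS+ libraries.

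Among amino acid carriers that fell, Slc7a3 and Slc1a1 changed most. Slc7a3 (chromosome X, bases 101079210 to 101086020, minus strand) encodes a cationic amino acid carrier for arginine and lysine. Slc7a3 had 120.0, 126, 89, 133 and 77.1 CPM in the ROS+ libraries, 66.8, 124, 36.7, 46.7 and 156 CPM in the ROS++ libraries and 25.7, 0.393, 0.238 and 3.86 CPM in the ROS+++ libraries. ROS+++ replicate 1 had the highest ROS+++ level and still lay below every library of the other classes. The difference was -4.8 ± 0.73 (SE; adjusted p = 6.06e-05) between ROS+++ and ROS+ and -4.28 ± 0.73 (SE; adjusted p = 0.000364) between ROS+++ and ROS++, with no call between ROS++ and ROS+ (-0.52, adjusted p = 0.617). Slc1a1 (chromosome 19, bases 28835049 to 28913960, plus strand) encodes the neuronal transporter of glutamate and cysteine. Slc1a1 had 215, 163, 135, 182 and 130.4 CPM in the ROS+ libraries, 131, 127, 139, 106 and 165 CPM in the ROS++ libraries and 11, 6.38, 0.19 and 15.9 CPM in the ROS+++ libraries. ROS++ and ROS+ overlapped, and all ROS+++ libraries lay below both. The differences were -4.65 ± 0.55 (SE; adjusted p = 3.95e-06) between ROS+++ and ROS+ and -4.36 ± 0.55 (SE; adjusted p = 2.28e-05) between ROS+++ and ROS++. Exons of 4430402I18Rik overlap 31.9% of its exon length.
Slc7a4, an orphan relative of the cationic carriers, averaged 61 ± 11.4, 54 ± 9.17 and 7.54 ± 5.82 CPM and fell in ROS+++ by 3.34 on the log2 scale against ROS+ (adjusted p = 2.87e-05), with 13.3% of its exon length shared with P2rx6. The glutamine carriers Slc38a1 and Slc38a3 averaged 110.0 ± 14.1, 74.6 ± 24.5 and 33.2 ± 17 CPM and 111 ± 25.3, 124 ± 38.3 and 34.7 ± 17.6 CPM, with differences of -1.82 (adjusted p = 3.82e-05) and -1.85 (adjusted p = 0.000348) between ROS+++ and ROS+. Slc38a3 was at 9.33 CPM in ROS+++ replicate 3, below the other ROS+++ libraries. The light chain Slc7a6 fell at both steps, with differences of -1.07 ± 0.27 (SE; adjusted p = 0.00621) and -1.18 ± 0.29 (SE; adjusted p = 0.00376), and averaged 40.6 ± 3.19, 19.1 ± 4.32 and 8.32 ± 3.27 CPM. Slc7a8, another light chain, averaged 42.5 ± 16.8, 19.2 ± 5.77 and 7.13 ± 6.17 CPM and was lower in ROS+++ than in ROS+ (log2 difference -2.62 ± 0.42 SE, adjusted p = 3.72e-05). The light chain Slc7a5 had its highest mean in ROS++ (11.9 ± 3.24, 21.3 ± 6.24 and 8.86 ± 2.9 CPM) and was lower in ROS+++ than in ROS++ (log2 difference -1.18 ± 0.30 SE, adjusted p = 0.00491). Slc7a7, the light chain known for macrophages, averaged 1.89 ± 2.33, 10.2 ± 5.41 and 3.84 ± 2.53 CPM and was higher in ROS++ than in ROS+ by 2.17 ± 0.54 (SE; adjusted p = 0.00553). All 11 microglia and macrophage markers measured were called higher in ROS++ and in ROS+++ than in ROS+, and none between ROS+++ and ROS++. Their part in the Slc7a7 result was not tested.

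Transporters of GABA, betaine, taurine, glycine and monoamines and of vesicular glutamate, 11 members, moved in opposite directions. In ROS++ against ROS+ 3 were higher and 3 lower, between ROS+++ and ROS+ 3 were higher and 6 lower, and between ROS+++ and ROS++ 1 was higher and 4 were lower. In shares these were 27.3% higher and 27.3% lower, 27.3% and 54.5%, and 9.09% and 36.4%. All genes had 16.4% and 13.2%, 19.2% and 40.0%, and 9.89% and 29.2%. With each of the other 3 scalings the counts between ROS++ and ROS+ were 3 higher and 2 lower. Slc6a13 (chromosome 6, bases 121300227 to 121337733, plus strand), a carrier of GABA and taurine, was near 0 in several ROS+ libraries. Slc6a13 had 29.4, 0.144, 0.803, 4.73 and 0 CPM in the ROS+ libraries, 102, 118, 80.2, 79.8 and 89.5 CPM in the ROS++ libraries and 531, 288, 262 and 225 CPM in the ROS+++ libraries. The classes did not overlap. The difference was 4.85 ± 0.74 (SE; adjusted p = 0.000203) between ROS++ and ROS+ and 6.57 ± 0.78 (SE; adjusted p = 6.53e-06) between ROS+++ and ROS+, with no call between ROS+++ and ROS++ (1.72, adjusted p = 0.0974). Slc6a12, its betaine and GABA carrying neighbour on chromosome 6, had 0 to 0.213 CPM in ROS+, 2.25 to 8.02 CPM in ROS++ and 8.2 to 23.6 CPM in ROS+++. Its ROS+ libraries were at or near the limit that a count of 0 allows, and it was called at both steps, 2.19 (adjusted p = 0.00016) and 1.74 (adjusted p = 0.00149). Slc6a11, the GABA carrier known from astrocytes, averaged 10.4 ± 0.91, 22.1 ± 3.3 and 20.01 ± 10.7 CPM and was higher in ROS++ than in ROS+ by 1.01 ± 0.29 (SE; adjusted p = 0.0144).

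Slc17a6 (chromosome 7, bases 51622006 to 51671119, plus strand), which loads glutamate into synaptic vesicles, fell already at the first step. Slc17a6 had 34.7, 41.5, 46.2, 48.3 and 55 CPM in the ROS+ libraries, 2.57, 6.17, 3.37, 2.2 and 12.8 CPM in the ROS++ libraries and 24.1, 0.0491, 0.381 and 11.6 CPM in the ROS+++ libraries. Every ROS+ library lay above every other library, ROS+++ replicates 1 and 4 reached or passed the ROS++ range, and the other 2 were near 0. The differences were -3.06 ± 0.70 (SE; adjusted p = 0.00303) between ROS++ and ROS+ and -3.3 ± 0.74 (SE; adjusted p = 0.00106) between ROS+++ and ROS+. Slc18a2, which loads monoamines, was lower in ROS++ than in ROS+ (log2 difference -0.76 ± 0.21 SE, adjusted p = 0.0118). Its difference of -0.87 (adjusted p = 0.0032) between ROS+++ and ROS+ was no call with relative log expression factors (adjusted p = 0.13) or with trimmed mean of M values factors (adjusted p = 0.0799), within a range of 0.00112 to 0.13. The taurine transporter Slc6a6 averaged 105 ± 21.4, 62.6 ± 23 and 36.6 ± 16.9 CPM and was lower in ROS+++ than in ROS+ (log2 difference -1.6 ± 0.31 SE, adjusted p = 0.000237). The glycine transporter Slc6a9 (6.42 ± 1.72, 7.33 ± 2.3 and 0.867 ± 0.553 CPM) and the dopamine transporter Slc6a3 (6.58 ± 3.82, 5.03 ± 4.2 and 0.303 ± 0.363 CPM) were lower in ROS+++ than in ROS+ (log2 differences of -2.0, adjusted p = 9.34e-05, and -2.42, adjusted p = 0.000842), and 30.2% of the exon length of Slc6a9 is shared with Ccdc24. Neuroblast and immature neuron markers were lower in ROS++ than in ROS+ for 10 of 10 genes, in ROS+++ than in ROS+ for 10 of 10, and in ROS+++ than in ROS++ for 8 of 10. In the 4 ROS+++ libraries their sums were 199, 41.1, 36.7 and 76.7 CPM, the highest in replicates 1 and 4, where Slc17a6 was also highest. Their part in these decreases was not tested.

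Carriers of organic ions, bile acids, fatty acids, peptides and urea, 21 members, had 5 higher and 2 lower between ROS++ and ROS+, 6 higher and 7 lower between ROS+++ and ROS+, and 3 higher and 8 lower between ROS+++ and ROS++. As shares of the group that is 23.8% higher and 9.52% lower, 28.6% and 33.3%, and 14.3% and 38.1%. Among all genes the shares were 16.4% and 13.2%, 19.2% and 40.0%, and 9.89% and 29.2%. The other 3 scalings gave 9 higher and 6 lower, 8 higher and 6 lower, and 9 higher and 6 lower between ROS+++ and ROS+. Slc22a8 (chromosome 19, bases 8591254 to 8611835, plus strand), the organic anion transporter OAT3, rose at each step. Slc22a8 had 15.2, 14.6, 3.88, 10.9 and 1.78 CPM in the ROS+ libraries, 388, 331, 223, 306 and 196 CPM in the ROS++ libraries and 1774, 945, 1125 and 1126 CPM in the ROS+++ libraries. Each class lay apart from the next. The differences were 5.07 ± 0.42 (SE; adjusted p = 5.45e-07), 7.18 ± 0.45 (SE; adjusted p = 6.28e-09) and 2.1 ± 0.45 (SE; adjusted p = 0.00191) for ROS++ against ROS+, for ROS+++ against ROS+ and for ROS+++ against ROS++, and all 3 calls held under every alternative run. Slc22a6, the related organic anion transporter OAT1 on the same chromosome, had 0 to 1.66 CPM in ROS+, 0.107 to 28.7 CPM in ROS++ and 0 to 10.6 CPM in ROS+++ and no call, with differences of 1.76 (adjusted p = 0.101), 0.83 (adjusted p = 0.402) and -0.93 (adjusted p = 0.394) in the same order.
Slc14a1 (chromosome 18, bases 78100091 to 78142119, minus strand), the urea transporter, was highest in ROS++. Slc14a1 had 24.6, 23.7, 10.5, 15.6 and 16 CPM in the ROS+ libraries, 137, 123, 127, 111 and 114 CPM in the ROS++ libraries and 43.7, 54.7, 26 and 88.2 CPM in the ROS+++ libraries. No ROS++ library overlapped another class. It was higher in ROS++ than in ROS+ by 2.75 ± 0.27 (SE; adjusted p = 5.45e-07) and lower in ROS+++ than in ROS++ (log2 difference -1.32 ± 0.29 SE, adjusted p = 0.00147), and ROS+++ remained above ROS+ by 1.44 ± 0.29 (SE; adjusted p = 0.000363). All 12 astrocyte and radial glia markers were higher in ROS++ than in ROS+, and 4 were lower in ROS+++ than in ROS++ with none higher; their part in the Slc14a1 result was not tested. The peptide carrier Slc15a2 averaged 114 ± 17.8, 150.1 ± 3.87 and 116 ± 17.6 CPM. Its small difference of -0.38 (adjusted p = 0.0328) between ROS+++ and ROS++ took the opposite sign, 0.031, with relative log expression factors, within a range of 0.0198 to 0.889 for the adjusted p.
On the falling side, Slc22a23, an orphan of the organic ion family, averaged 102 ± 27.5, 128 ± 44.2 and 8.39 ± 4.49 CPM, with differences of -3.56 ± 0.33 (SE; adjusted p = 5.68e-08) between ROS+++ and ROS+ and -3.86 ± 0.33 (SE; adjusted p = 1.73e-07) between ROS+++ and ROS++. Slc22a17, known as a receptor for lipocalin-2, averaged 138 ± 24.8, 159.8 ± 42.7 and 34.8 ± 14.3 CPM and fell in ROS+++ by 2.03 against ROS+ (adjusted p = 1.57e-06). The long-chain fatty acid transporter Slc27a6 had 1.24 to 7.04 CPM in ROS+, 3.63 to 10.5 CPM in ROS++ and 0 to 0.143 CPM in ROS+++, a difference of -2.2 (adjusted p = 0.000213) between ROS+++ and ROS+. The oligodendrocyte precursor, myelinating and progenitor sums above were likewise lowest in ROS+++, and the part of these markers in the decreases of Slc22a23, Slc22a17, Slc38a3 and Slc44a1 was not tested. The bile acid transporter Slc10a1, best known from liver, was low everywhere. It had 0 to 0.847 CPM in ROS+, 0 to 1.36 CPM in ROS++ and 4.33 to 6.38 CPM in ROS+++. Its ROS+++ libraries lay above the others, with a difference of 2.21 ± 0.34 (SE; adjusted p = 2.85e-05) from ROS+. It passed the filter of 1 CPM in 4 libraries only with the ROS+++ libraries. A gene this low was thus tested only because it was high there, which limits what its p-value can show.

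Vitamin and choline carriers, 12 members, had 1 higher and none lower between ROS++ and ROS+, 2 higher and 5 lower between ROS+++ and ROS+, and 2 higher and 5 lower between ROS+++ and ROS++. The shares were 8.33% higher and 0% lower, 16.7% and 41.7%, and 16.7% and 41.7%. Those of all genes were 16.4% and 13.2%, 19.2% and 40.0%, and 9.89% and 29.2%. Slc19a1 (chromosome 10, bases 77032241 to 77061002, plus strand) encodes the reduced folate carrier, which takes up folates for nucleotide synthesis. Slc19a1 had 62.1, 48.1, 48.5, 49.7 and 45.1 CPM in the ROS+ libraries, 475, 271, 271, 497 and 277 CPM in the ROS++ libraries and 1517, 1664, 2006 and 1652 CPM in the ROS+++ libraries. The classes did not overlap, and the spread within each class was small beside the steps. The differences were 2.75 ± 0.17 (SE; adjusted p = 2.26e-09) between ROS++ and ROS+, 5.05 ± 0.18 (SE; adjusted p = 1.13e-12) between ROS+++ and ROS+ and 2.3 ± 0.18 (SE; adjusted p = 9.84e-08) between ROS+++ and ROS++. Choline carriers did not follow it. The choline transporter-like gene Slc44a1 averaged 262 ± 62.5, 296 ± 108 and 82.9 ± 20.3 CPM, lower in ROS+++ than in ROS+ (log2 difference -1.64 ± 0.25 SE, adjusted p = 2.25e-05). Slc44a5 averaged 16.9 ± 3.42, 11.8 ± 4.66 and 1.24 ± 1.06 CPM and the high-affinity choline transporter of cholinergic neurons, Slc5a7, 18.9 ± 5.45, 12.5 ± 3.85 and 2.45 ± 2.7 CPM, with differences of -3.11 (adjusted p = 2.02e-06) and -2.93 (adjusted p = 7.6e-05) between ROS+++ and ROS+. Their relative Slc44a2 went the other way, averaging 87.1 ± 11.8, 103 ± 13.3 and 178 ± 66.3 CPM, higher in ROS+++ than in ROS+ by 0.94 ± 0.22 (SE; adjusted p = 0.00143).

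Among 8 carriers of monocarboxylates, dicarboxylates and sulfate, 3 were higher and none lower between ROS++ and ROS+, 4 higher and 3 lower between ROS+++ and ROS+, and 2 higher and 3 lower between ROS+++ and ROS++. That is 37.5% higher and 0% lower, 50% and 37.5%, and 25% and 37.5%. All genes had 16.4% and 13.2%, 19.2% and 40.0%, and 9.89% and 29.2%. Scaled otherwise, the counts between ROS+++ and ROS++ were 3 higher and 3 lower, 3 higher and 3 lower, and 3 higher and 3 lower. Slc16a12 (chromosome 19, bases 34668403 to 34747289, minus strand), a creatine transporter of the monocarboxylate family, rose at each step. Slc16a12 had 2.01, 2.69, 7.0, 3.79 and 2.81 CPM in the ROS+ libraries, 69.8, 28.7, 37.1, 76.6 and 31.2 CPM in the ROS++ libraries and 248, 154, 233 and 163 CPM in the ROS+++ libraries. The classes did not overlap. The differences were 3.38 ± 0.31 (SE; adjusted p = 2.81e-07) between ROS++ and ROS+ and 2.1 ± 0.33 (SE; adjusted p = 8.74e-05) between ROS+++ and ROS++. Slc13a3, a sodium-coupled dicarboxylate carrier, was highest in ROS++. Slc13a3 had 1.5, 0.048, 1.92, 2.09 and 0.141 CPM in the ROS+ libraries, 26.9, 19.5, 28.4, 25.5 and 16.1 CPM in the ROS++ libraries and 26.9, 14.3, 2.05 and 18.8 CPM in the ROS+++ libraries. ROS+++ replicate 3 stood far below the other ROS+++ libraries and within the ROS+ range. The difference was 3.62 ± 0.51 (SE; adjusted p = 3.14e-05) between ROS++ and ROS+, with no call between ROS+++ and ROS++ (-0.91, adjusted p = 0.197). In the same library the astrocyte and radial glia marker sum was lowest of the class, at 5317, 5869.9, 2865 and 7645 CPM in ROS+++ replicates 1 to 4, and its part was not tested. Slc16a13 and Slc16a14, less studied members of the monocarboxylate family, averaged 20.04 ± 2.45, 15.6 ± 7.52 and 2.16 ± 1.57 CPM and 5.82 ± 3.49, 4.59 ± 3.27 and 0.167 ± 0.0603 CPM. They were lower in ROS+++ than in ROS+ (log2 differences of -2.9, adjusted p = 1.42e-05, and -2.4, adjusted p = 0.000641). The citrate carrier Slc13a5 averaged 14 ± 3.12, 18.7 ± 6.4 and 5.74 ± 4.54 CPM and was lower in ROS+++ than in ROS+ (log2 difference -1.48 ± 0.46 SE, adjusted p = 0.0108), with 9.57% of its exon length shared with 1700051A21Rik.

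Metal and haem carriers, 26 members, had 6 higher and 1 lower between ROS++ and ROS+, 7 higher and 9 lower between ROS+++ and ROS+, and 1 higher and 5 lower between ROS+++ and ROS++. Given as shares, 23.1% were higher and 3.85% lower, 26.9% and 34.6%, and 3.85% and 19.2%. Of all genes, 16.4% were higher and 13.2% lower, 19.2% and 40.0%, and 9.89% and 29.2%. With the other 3 scalings the counts were 8 higher and 6 lower, 8 higher and 7 lower, and 8 higher and 6 lower between ROS+++ and ROS+, and 6 higher and 3 lower, 3 higher and 3 lower, and 4 higher and 3 lower between ROS+++ and ROS++. The 1 higher at the last step with library totals was Slc30a10 (chromosome 1, bases 185454848 to 185468762, plus strand), a manganese exporter. Slc30a10 had 9.8, 3.84, 10.4, 17.4 and 9.05 CPM in the ROS+ libraries, 89.4, 36.4, 63.2, 87 and 25.1 CPM in the ROS++ libraries and 227, 211, 255 and 240.0 CPM in the ROS+++ libraries. The classes did not overlap, and the ROS+++ libraries were close to each other. It was higher by 2.43 ± 0.34 (SE; adjusted p = 3.37e-05) in ROS++ than in ROS+ and by 2.09 ± 0.37 (SE; adjusted p = 0.000212) in ROS+++ than in ROS++. Slc39a12, a zinc importer, averaged 0.898 ± 1.23, 23.9 ± 7.31 and 46 ± 26 CPM and was higher in ROS++ than in ROS+ by 3.89 ± 0.44 (SE; adjusted p = 2.54e-06), with no call between ROS+++ and ROS++ (0.80, adjusted p = 0.189). Slc11a1, a metal transporter of macrophage phagosomes, had 0.0853 to 1.78 CPM in ROS+, 0.0546 to 31.4 CPM in ROS++ and 25.5 to 38.9 CPM in ROS+++. It was at 0.0546 CPM in ROS++ replicate 5, far below the other ROS++ libraries. It was higher in ROS+++ than in ROS+ by 4.26 ± 0.72 (SE; adjusted p = 6.39e-05). The ROS++ minus ROS+ difference of 2.77 (adjusted p = 0.00451) was no call with limma-voom (adjusted p = 0.162; range 9.27e-07 to 0.162). The microglia and macrophage marker sum in ROS++ replicates 1 to 5 was 2513, 939.6, 1954, 1657 and 1319.9 CPM. The part of these markers in the Slc11a1 levels was not tested.
The magnesium carrier Slc41a3 averaged 0.738 ± 0.938, 4.93 ± 3.04 and 10.5 ± 4.75 CPM and was higher in ROS+++ than in ROS+ by 2.78 ± 0.48 (SE; adjusted p = 8.2e-05). Its relative Slc41a2 averaged 32.1 ± 14.6, 32.2 ± 11.4 and 7.29 ± 6.55 CPM and was lower (log2 difference -2.42 ± 0.54 SE, adjusted p = 0.000939) in the same comparison. Of the copper carriers, Slc31a2 was higher in ROS++ than in ROS+ by 0.79 ± 0.22 (SE; adjusted p = 0.011), and Slc31a1, the main copper importer, had class means of 138 ± 18.1, 143 ± 27.1 and 141 ± 32.4 CPM and no call, with a difference between ROS+++ and ROS+ of 0.01 ± 0.18 (SE). The zinc importers Slc39a6 and Slc39a14 averaged 76 ± 7.8, 65.6 ± 15.2 and 24.6 ± 8.08 CPM and 15.6 ± 1.8, 16.9 ± 4.02 and 4.83 ± 1.76 CPM and were lower in ROS+++ than in ROS+ (log2 differences of -1.63, adjusted p = 4.51e-06, and -1.55, adjusted p = 0.000251).

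Carriers of bicarbonate, chloride and other anions, 19 members, had 5 higher and 1 lower between ROS++ and ROS+, 5 higher and 6 lower between ROS+++ and ROS+, and 3 higher and 5 lower between ROS+++ and ROS++. Their shares were 26.3% higher and 5.26% lower, 26.3% and 31.6%, and 15.8% and 26.3%. For all genes they were 16.4% and 13.2%, 19.2% and 40.0%, and 9.89% and 29.2%. By the other 3 scalings there were 7 higher and 6 lower, 6 higher and 6 lower, and 7 higher and 6 lower between ROS+++ and ROS+, and 4 higher and 3 lower, 4 higher and 4 lower, and 4 higher and 3 lower between ROS+++ and ROS++. Slc12a2 (chromosome 18, bases 57878678 to 57946821, plus strand), the sodium-potassium-chloride cotransporter NKCC1 that loads chloride into cells, rose at each step. Slc12a2 had 101, 65, 61.6, 74.9 and 51.2 CPM in the ROS+ libraries, 315, 143, 228, 302 and 122 CPM in the ROS++ libraries and 415, 449, 516 and 408 CPM in the ROS+++ libraries. The ranges of the 3 classes were separate. The differences were 1.57 ± 0.23 (SE; adjusted p = 5.64e-05) between ROS++ and ROS+ and 1.1 ± 0.25 (SE; adjusted p = 0.00185) between ROS+++ and ROS++. As for Slc6a20a, ROS++ replicates 1 and 4 were the highest of their class for Slc38a11, Slc19a1, Slc16a12, Slc30a10 and Slc12a2. Slc22a8 and Slc6a13, which also rose, did not share this order, and replicate 4 was the lowest ROS++ library for Slc6a13. The part of the mural markers, also highest in replicates 1 and 4, was not tested. The iodide transporter Slc5a5 averaged 1.8 ± 1.5, 9.22 ± 8.54 and 29.7 ± 10.2 CPM, higher in ROS+++ than in ROS+ by 3.53 ± 0.63 (SE; adjusted p = 0.000125).
Sodium bicarbonate carriers, which set cell pH, split. Slc4a4, known from astrocytes, averaged 19.6 ± 7.36, 42.1 ± 5.0 and 65.5 ± 35.5 CPM and was higher in ROS++ than in ROS+ by 1.14 ± 0.33 (SE; adjusted p = 0.0134). Slc4a10 (chromosome 2, bases 62046462 to 62326730, plus strand), known from neurons, fell most of the group. Slc4a10 had 68.9, 74.4, 62.7, 74.7 and 45.7 CPM in the ROS+ libraries, 30.1, 68, 24.1, 41 and 37.1 CPM in the ROS++ libraries and 8.45, 0.0491, 0.286 and 2.99 CPM in the ROS+++ libraries. All ROS+++ libraries lay below all others, with differences of -4.61 ± 0.49 (SE; adjusted p = 3.68e-07) from ROS+ and -3.86 ± 0.49 (SE; adjusted p = 1.05e-05) from ROS++. Slc4a7 and Slc4a8 averaged 60.00 ± 8.55, 36.9 ± 2.85 and 13.6 ± 5.45 CPM and 17.4 ± 8.96, 20.4 ± 6.26 and 3.95 ± 2.2 CPM and were lower in ROS+++ than in ROS+ (log2 differences of -2.13, adjusted p = 5.54e-07, and -1.91, adjusted p = 0.000338).

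**Figure D4:**
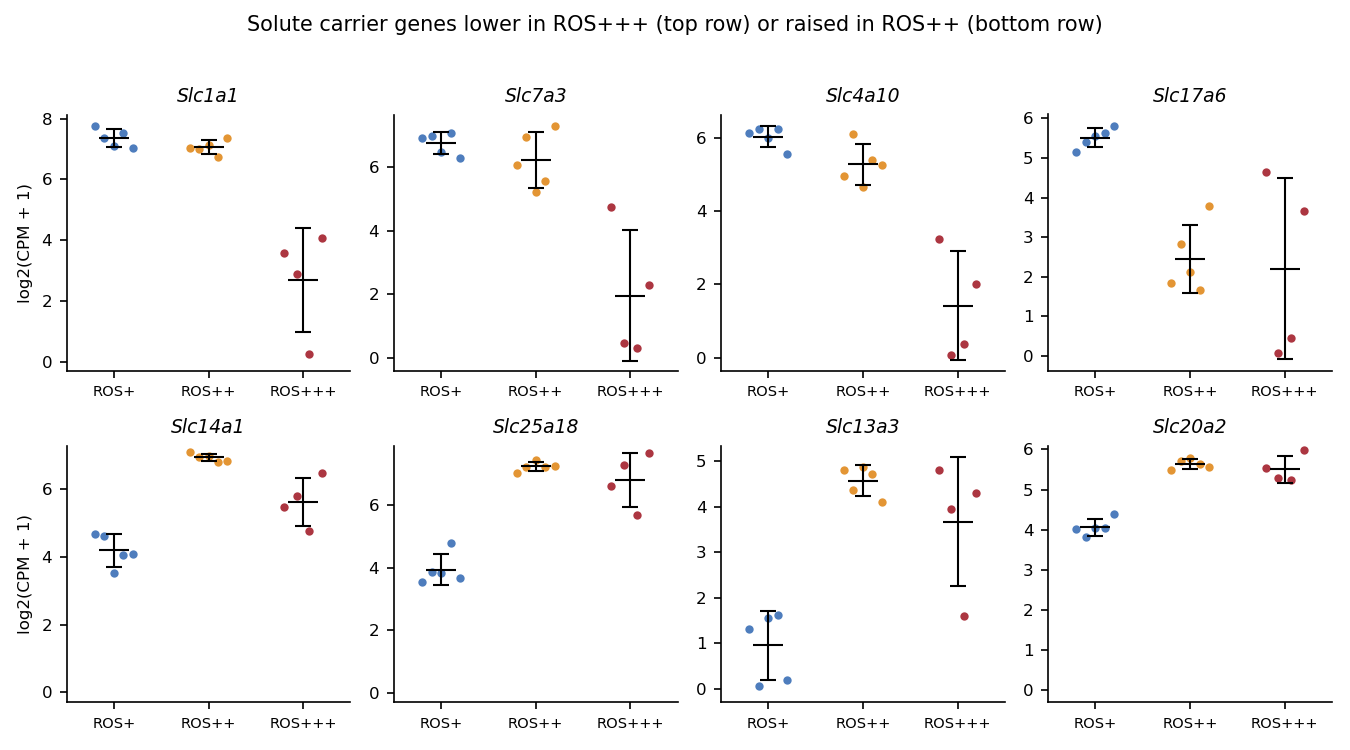
log2(CPM + 1) of 8 members in each library (points) of the 3 classes, with the class mean and SD in black. In the top row the ROS+++ libraries of Slc1a1, Slc7a3 and Slc4a10 lie below all others and Slc17a6 is lower already in ROS++; in the bottom row Slc14a1, Slc25a18, Slc13a3 and Slc20a2 have their highest means in ROS++.

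The 12 sodium-calcium and sodium-proton exchangers had 1 higher and 1 lower between ROS++ and ROS+, none higher and 6 lower between ROS+++ and ROS+, and none higher and 4 lower between ROS+++ and ROS++. In shares that was 8.33% higher and 8.33% lower, 0% and 50%, and 0% and 33.3%. All genes had 16.4% and 13.2%, 19.2% and 40.0%, and 9.89% and 29.2%. Other scalings gave 1 higher and 5 lower, 1 higher and 6 lower, and 1 higher and 5 lower between ROS+++ and ROS+, and 0 higher and 1 lower, 0 higher and 2 lower, and 0 higher and 2 lower between ROS+++ and ROS++. Slc8a1, the plasma membrane sodium-calcium exchanger, averaged 5.42 ± 4.7, 0.773 ± 0.479 and 0.261 ± 0.159 CPM and was already lower in ROS++ than in ROS+ (log2 difference -1.62 ± 0.41 SE, adjusted p = 0.00607). Slc8a3 averaged 16.6 ± 4.46, 11.8 ± 9.96 and 3.0 ± 3.55 CPM, lower in ROS+++ than in ROS+ (log2 difference -2.65 ± 0.63 SE, adjusted p = 0.0015). Slc9a9, a sodium-proton exchanger of endosomes, was the 1 higher in ROS++ than in ROS+, by 0.75 ± 0.20 (SE; adjusted p = 0.00841), with means of 36.8 ± 7.14, 62.2 ± 8.83 and 49.7 ± 16.6 CPM. The Golgi exchanger Slc9a8 and the exchanger Slc9a5 averaged 44.4 ± 5.5, 34.2 ± 10.7 and 18.4 ± 6.86 CPM and 5.56 ± 3.04, 6.51 ± 4.05 and 0.677 ± 0.818 CPM, with differences between ROS+++ and ROS+ of -1.28 (adjusted p = 0.00036) and -1.95 (adjusted p = 0.0012).

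Sugar and sugar phosphate carriers, 15 members, had 2 higher and 2 lower between ROS++ and ROS+, 3 higher and 8 lower between ROS+++ and ROS+, and none higher and 4 lower between ROS+++ and ROS++. These are shares of 13.3% higher and 13.3% lower, 20% and 53.3%, and 0% and 26.7%. Among all genes they were 16.4% and 13.2%, 19.2% and 40.0%, and 9.89% and 29.2%. The split between ROS+++ and ROS+ turned with the other 3 scalings, to 5 higher and 4 lower, 5 higher and 4 lower, and 5 higher and 4 lower, and that between ROS+++ and ROS++ became 2 higher and 4 lower, 1 higher and 4 lower, and 1 higher and 4 lower. The main glucose transporters of brain, Slc2a1 and Slc2a3, are not members. Slc2a10, a glucose transporter of intracellular membranes, had 0 to 2.98 CPM in ROS+, 0.322 to 18.1 CPM in ROS++ and 19.6 to 24.5 CPM in ROS+++ and was higher in ROS+++ than in ROS+ by 3.49 ± 0.65 (SE; adjusted p = 0.000168). Slc2a4, the insulin-regulated glucose transporter, averaged 6.57 ± 3.47, 16.3 ± 9.68 and 39.4 ± 19.9 CPM and was higher in ROS+++ than in ROS+ by 2.42 ± 0.50 (SE; adjusted p = 0.000459). The glucose-6-phosphate antiporter Slc37a2 averaged 1.45 ± 0.527, 8.59 ± 4.14 and 6.12 ± 5.23 CPM and was higher in ROS++ than in ROS+ by 1.89 ± 0.42 (SE; adjusted p = 0.00225). Its relative Slc37a3 averaged 99.5 ± 23.5, 48.4 ± 15.7 and 39.6 ± 6.72 CPM and was lower in ROS++ than in ROS+ (log2 difference -1.05 ± 0.22 SE, adjusted p = 0.00142). Slc45a1, a proton-coupled sugar carrier of brain, had 11 to 28.1 CPM in ROS+, 0.471 to 15.6 CPM in ROS++ and 0 to 0.764 CPM in ROS+++, lower in ROS+++ than in ROS+ (log2 difference -4.03 ± 0.55 SE, adjusted p = 7e-06). Slc2a6 averaged 18.9 ± 3.69, 19.5 ± 13.1 and 4.51 ± 3.07 CPM, with a difference of -2.16 (adjusted p = 0.00207) in that comparison.

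None of the 9 carriers of nucleosides and nucleotide sugars was higher in any comparison with library totals. In ROS++ against ROS+ 2 were lower, between ROS+++ and ROS+ 6, and between ROS+++ and ROS++ 3. These are 22.2%, 66.7% and 33.3% of the group, beside 13.2%, 40.0% and 29.2% of all genes. Higher calls made up 16.4%, 19.2% and 9.89% of all genes in the same order. The other 3 scalings gave 1 higher and 3 lower, 0 higher and 3 lower, and 1 higher and 3 lower between ROS+++ and ROS+, and 1 higher and 3 lower, 1 higher and 3 lower, and 1 higher and 3 lower between ROS+++ and ROS++. Slc29a1, the equilibrative nucleoside transporter that also carries adenosine, was lower in both higher classes. Slc29a1 had 213, 228, 262, 202 and 263 CPM in the ROS+ libraries, 115, 116, 73.9, 103 and 87.2 CPM in the ROS++ libraries and 155, 80.7, 78.1 and 63.8 CPM in the ROS+++ libraries. Every ROS+ library lay above every other library. It was lower in ROS++ than in ROS+ (log2 difference -1.24 ± 0.20 SE, adjusted p = 0.000111), with no call between ROS+++ and ROS++ (-0.14, adjusted p = 0.635). Slc29a4, which carries monoamines at the plasma membrane, had 9.2 to 20.04 CPM in ROS+, 0.314 to 8.85 CPM in ROS++ and 0.0952 to 1.86 CPM in ROS+++, lower in ROS+++ than in ROS+ (log2 difference -3.5 ± 0.53 SE, adjusted p = 1.97e-05). In the Golgi set, the UDP-galactose carrier Slc35a2 averaged 53.7 ± 12.5, 65.9 ± 22.1 and 23.9 ± 8.02 CPM and was lower in ROS+++ than in ROS+ (log2 difference -1.16 ± 0.27 SE, adjusted p = 0.00127). The CMP-sialic acid carrier Slc35a1 averaged 93.6 ± 6.02, 88.5 ± 16.3 and 107 ± 33.3 CPM with no call (between ROS+++ and ROS+, 0.14, adjusted p = 0.511).

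Carriers of the SLC25 family, called mitochondrial carriers here although the group holds the peroxisomal Slc25a17, were the largest group, with 37 members. In ROS++ against ROS+ 7 were higher and 7 lower, between ROS+++ and ROS+ 9 were higher and 17 lower, and between ROS+++ and ROS++ 4 were higher and 11 lower. The group's shares were 18.9% higher and 18.9% lower, 24.3% and 45.9%, and 10.8% and 29.7%. Those of all genes were 16.4% and 13.2%, 19.2% and 40.0%, and 9.89% and 29.2%. Scaled in the other 3 ways, the counts were 12 higher and 9 lower, 9 higher and 12 lower, and 10 higher and 10 lower between ROS+++ and ROS+, and 6 higher and 5 lower, 5 higher and 7 lower, and 6 higher and 7 lower between ROS+++ and ROS++. Between ROS++ and ROS+ each of these 3 scalings gave 7 higher and 6 lower. Slc25a17 itself averaged 357 ± 28.7, 269 ± 55 and 214 ± 26.2 CPM and is 1 of the 17 lower calls, with a difference of -0.74 ± 0.14 (SE; adjusted p = 0.00017) that was no call with relative log expression factors (adjusted p = 0.0939; range 4.14e-05 to 0.0939). The group's median difference between ROS+++ and ROS+ was -0.39 with library totals and 0.04, -0.10 and -0.02 with relative log expression, upper-quartile and trimmed mean of M values factors.
The 2 ADP/ATP carriers, Slc25a4 and Slc25a5, which exchange matrix ATP for cytosolic ADP, moved apart. Slc25a5 had 699.6, 589, 456, 562 and 404 CPM in the ROS+ libraries, 1091, 929.8, 718, 809 and 847 CPM in the ROS++ libraries and 1136, 1158, 1131 and 1033 CPM in the ROS+++ libraries. Slc25a4 had 1588, 1358, 1639, 1710.4 and 1699 CPM in the ROS+ libraries, 1301, 1549.8, 1462, 1549 and 1849 CPM in the ROS++ libraries and 1132, 1209, 1280.1 and 1292 CPM in the ROS+++ libraries. Slc25a5 was higher in ROS++ than in ROS+ by 0.71 ± 0.13 (SE; adjusted p = 0.000504) and in ROS+++ than in ROS+ by 1.06 ± 0.14 (SE; adjusted p = 4.22e-06). For Slc25a4 the difference between ROS+++ and ROS+ was -0.38 ± 0.10 (SE; adjusted p = 0.00249) with library totals. That difference was 0.065 (adjusted p = 0.612) with relative log expression factors, -0.081 (adjusted p = 0.481) with upper-quartile factors and 0.0019 (adjusted p = 0.989) with trimmed mean of M values factors, so the call ended under all 3 (adjusted p over all alternatives 0.000481 to 0.989). The ratio of the 2 genes within a library does not depend on scaling. It was 0.44, 0.43, 0.28, 0.33 and 0.24 in the ROS+ libraries, 0.84, 0.60, 0.49, 0.52 and 0.46 in the ROS++ libraries and 1.00, 0.96, 0.88 and 0.80 in the ROS+++ libraries (Slc25a5 over Slc25a4, CPM). All ROS++ libraries lay above all ROS+ libraries, and ROS++ replicate 1 lay within the ROS+++ range. The ratio shows unequal change and not that either gene was constant. Both genes have processed pseudogene copies, so reads may be split between near-identical sequences and their levels are uncertain. Slc25a3, the mitochondrial phosphate carrier, averaged 52.1 ± 8.5, 91.4 ± 22 and 100.5 ± 14.1 CPM, higher in ROS++ than in ROS+ by 0.78 ± 0.18 (SE; adjusted p = 0.00312).

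Among carriers of glutamate and aspartate, paralogs differed, and the glutamate carriers Slc25a18 and Slc25a22 moved in opposite directions. Slc25a18, a mitochondrial glutamate carrier known from astrocytes, rose at the first step. Slc25a18 had 10.7, 13.4, 13.2, 26.8 and 11.9 CPM in the ROS+ libraries, 129.8, 147, 172, 149 and 152 CPM in the ROS++ libraries and 96.1, 154, 50.5 and 202 CPM in the ROS+++ libraries. All ROS+ libraries lay below all others. Its difference was 3.29 ± 0.30 (SE; adjusted p = 2.13e-07) between ROS++ and ROS+ and 2.86 ± 0.32 (SE; adjusted p = 5.33e-07) between ROS+++ and ROS+, with no call between ROS+++ and ROS++ (-0.42, adjusted p = 0.307). The other glutamate carrier, Slc25a22, averaged 48.8 ± 16.7, 18.2 ± 4.75 and 13.2 ± 6.5 CPM and was lower in ROS++ than in ROS+ (log2 difference -1.35 ± 0.32 SE, adjusted p = 0.00396). Of the aspartate and glutamate exchangers of the malate-aspartate shuttle, Slc25a12 averaged 107 ± 15.9, 111 ± 18.4 and 102 ± 8.64 CPM with no call (between ROS+++ and ROS+, -0.06, adjusted p = 0.762), and Slc25a13 averaged 10.6 ± 3.61, 12.9 ± 9.68 and 0.231 ± 0.233 CPM, lower in ROS+++ than in ROS+ (log2 difference -3.18 ± 0.45 SE, adjusted p = 9.28e-06). Other called members were Slc25a35 and Slc25a45, carriers of the family with little known of their substrates, with 5.9 ± 3.92, 22.4 ± 5.6 and 45.6 ± 11.3 CPM and 4.5 ± 2.85, 12.6 ± 2.31 and 29.2 ± 13.7 CPM. Both were higher in ROS++ than in ROS+, 1.93 (adjusted p = 0.000488) and 1.44 (adjusted p = 0.00758), and Rangrf exons overlap 31.3% of the exon length of Slc25a35.
Slc25a36, a pyrimidine nucleotide carrier, fell at both steps with little spread. Slc25a36 had 299, 343, 339, 266 and 332 CPM in the ROS+ libraries, 238, 222, 219, 189 and 177 CPM in the ROS++ libraries and 114, 99.6, 107 and 98.5 CPM in the ROS+++ libraries. The classes did not overlap, and the differences were -0.59 ± 0.11 (SE; adjusted p = 0.000494) between ROS++ and ROS+ and -0.99 ± 0.12 (SE; adjusted p = 4.84e-06) between ROS+++ and ROS++. Slc25a27, an uncoupling protein relative known from brain, averaged 69.2 ± 12.7, 28.1 ± 13.5 and 9.12 ± 3.88 CPM and fell at both steps, with log2 differences of -1.43 (adjusted p = 0.00453) and -1.43 (adjusted p = 0.00521). The ornithine carrier Slc25a15 averaged 31.9 ± 4.98, 28.7 ± 13.3 and 6.61 ± 6.06 CPM, lower in ROS+++ than in ROS+ (log2 difference -2.61 ± 0.53 SE, adjusted p = 0.000376).

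**Figure D5:**
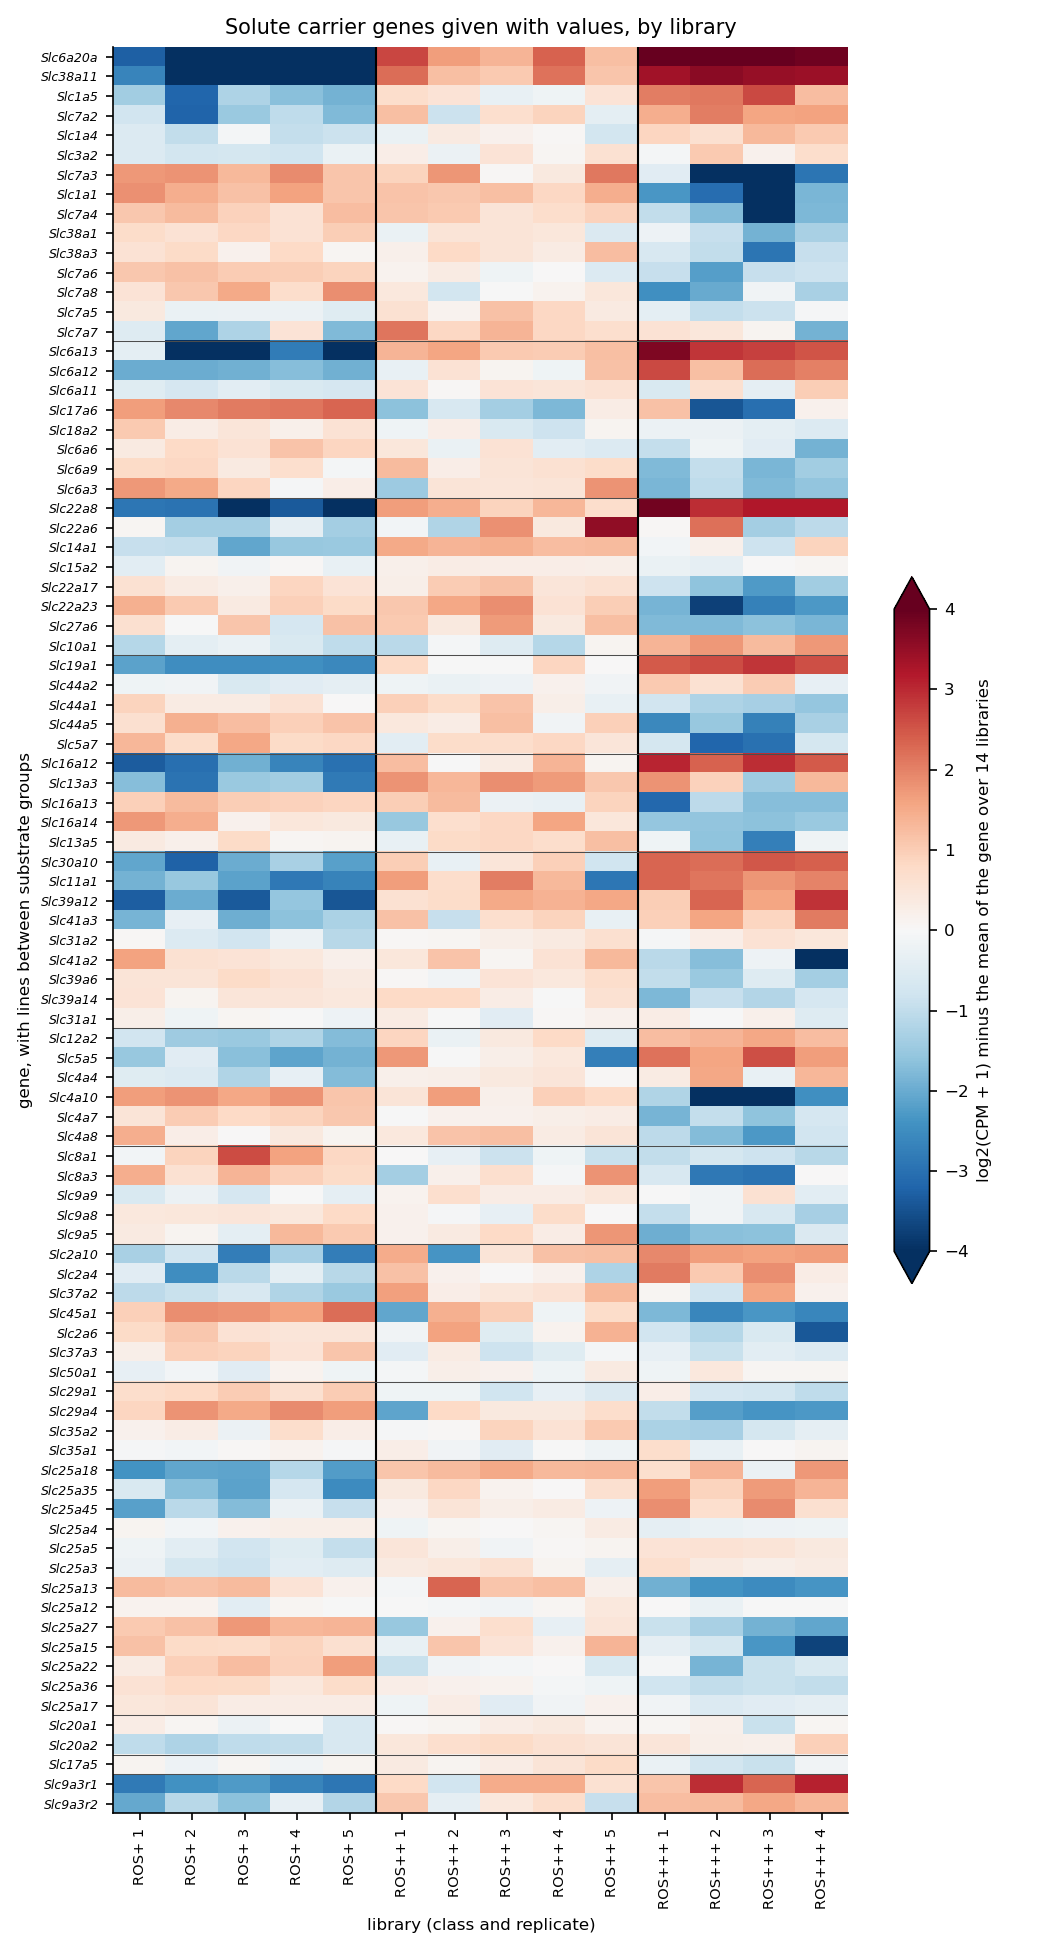
Heat map of the 90 members given with values (rows, in substrate groups separated by lines) in 14 libraries (columns, by class). Colour is log2(CPM + 1) minus the mean of the gene over all libraries, red above and blue below; Slc6a20a and Slc22a8 are dark blue in ROS+ and dark red in ROS+++.

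The phosphate carriers Slc20a1 and Slc20a2, which take up phosphate with sodium, differed from each other. Slc20a2 averaged 15.8 ± 2.5, 49 ± 4.25 and 45.5 ± 11.6 CPM, higher in ROS++ than in ROS+ by 1.58 ± 0.19 (SE; adjusted p = 6e-06) and in ROS+++ than in ROS+ by 1.45 ± 0.20 (SE; adjusted p = 9.42e-06). Slc20a1 averaged 85.2 ± 19.5, 104 ± 10.3 and 85.4 ± 25.3 CPM and had no call, with a difference of -0.02 ± 0.21 (SE) between ROS+++ and ROS+ and 13.1% of its exon length shared with 9830144P21Rik. The 3 members with other substrates had 1 call among them, the lysosomal sialic acid exporter Slc17a5. Its difference of -0.91 (adjusted p = 0.00279) between ROS+++ and ROS++ was no call with relative log expression factors (adjusted p = 0.0715; range 0.00196 to 0.0715). Of the 5 genes that are not transporters, 2 (40%) were called higher in each comparison, beside 16.4%, 19.2% and 9.89% of all genes. They were the scaffold proteins Slc9a3r1 and Slc9a3r2, which anchor membrane transporters to the cytoskeleton. In the group 1 was lower between ROS+++ and ROS+ and 1 between ROS+++ and ROS++ (20% each), beside 40.0% and 29.2% of all genes. With the other 3 scalings none was lower in either comparison. Slc9a3r1 had 3.04, 4.32, 4.95, 3.58 and 2.86 CPM in the ROS+ libraries, 49.5, 16, 80.1, 79.9 and 42.8 CPM in the ROS++ libraries and 61.3, 219.8, 142 and 239.9 CPM in the ROS+++ libraries. Its differences were 3.35 ± 0.40 (SE; adjusted p = 5.52e-06) between ROS++ and ROS+ and 4.98 ± 0.43 (SE; adjusted p = 2.39e-08) between ROS+++ and ROS+. Slc9a3r2 averaged 15.5 ± 7.63, 45.5 ± 23.3 and 91.5 ± 9.63 CPM, higher in ROS+++ than in ROS+ by 2.6 ± 0.37 (SE; adjusted p = 9.96e-06).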

How the data were processed

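RNA from GFP- and dihydroethidium-sorted dentate gyrus cells was reverse transcribed from poly(A) with template switching, amplified and sequenced, per the labels' protocols. What the authors deposited is a single table holding log2 values of 15119 genes in 14 libraries. STAR, edgeR and the build mm10 are named in the submitters' processing notes; annotation and counting tool were not given in the sources used here. Values in the table share a minimum of -4.36. Above it they proved whole multiples of each library's smallest step (tolerance 0.001 reads), so reads were recovered and turned into CPM over the listed genes. Replicates were numbered in accession order and pair no samples.

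Symbols, coordinates and exon overlaps came from GENCODE M21 (mm10), with 15060 of the listed genes matched to a symbol. Tests used limma 3.58.1 in R 4.3.3 (trend and robust variance, statmod 1.5.0) on log2(CPM + 1) over all 14 libraries with 3 class means and 11 residual degrees of freedom. The filter kept 15102 genes with 1 CPM or more in 4 or more libraries and removed 17. P-values were adjusted by Benjamini-Hochberg over all genes tested, and the scripts were tested on simulated data. SE is that of limma, and floors cover counting error only. The 26 alternatives were 3 other scalings, 2 pseudocounts, the deposited log2 values, 2 filters, limma-voom, a fit without robust variance, each library left out in turn, only the 2 classes compared and, added after the data were seen, a block for sets of neighbouring library numbers.

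The members and lists were chosen with earlier results of these data known. Members with values are those of each substrate group with the largest called changes in each direction, the highest levels per kilobase or the largest ROS++ excess. That rule gives 109 members, shortened after the values were seen, and 90 are given in all. Among these 14 lie outside the rule and were also chosen after their values were seen (Slc7a2, Slc1a4, Slc3a2, Slc38a1, Slc38a3, Slc22a6, Slc15a2, Slc41a3, Slc31a2, Slc9a8, Slc25a3, Slc25a12, Slc25a36 and Slc25a17).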

Additional observations from a re-analysis of the deposited data

Results flagged for a closer look

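Within a class, 1 library of a member given with values was taken as far from the others when its gap to the nearest, on log2(CPM + 1), exceeded Dixon's critical value. Of 270 groups tested, 17 passed, and chance gives about 1 in 20. In ROS+, Slc38a11 had 4.54 CPM in replicate 1, above 0.0469 to 0.554 CPM in the other 4 libraries. Replicate 4 stood above the others for Slc6a12 (0.213 CPM) and Slc25a18 (26.8 CPM), replicate 1 for Slc4a8 (33.2 CPM) and replicate 5 for Slc9a8 (54.04 CPM). Replicate 3 was lowest for Slc25a12 (79.8 CPM).

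In ROS++, Slc11a1 had 0.0546 CPM in replicate 5 beside 11.8 to 31.4 CPM in the others, and Slc2a10 had 0.322 CPM in replicate 2 beside 8.70 to 18.1 CPM. Slc29a4 had 0.314 CPM in replicate 1, Slc6a11 had 16.3 CPM in replicate 2 and Slc5a7 had 5.97 CPM in replicate 1, each the lowest of its class. Slc44a2 was highest in replicate 4, at 126 CPM.

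In ROS+++, Slc38a3 had 9.33 CPM in replicate 3 beside 38.7 to 49.8 CPM, and Slc20a1 had 48.1 CPM in replicate 3 beside 94.4 to 104 CPM. Replicate 2 was lowest for Slc7a6 (3.44 CPM) and Slc25a12 (89.1 CPM), and replicate 1 was highest for Slc29a4 (1.86 CPM). No cause was tested.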

How the results depend on the processing

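Of 187 calls of the members given with values, 158 held under all alternatives run and 29 ended under at least 1. Not all 26 were run for every member. Members too low for the filter of at least 5 CPM in at least 4 libraries, such as Slc10a1, were not tested under it. Relative log expression factors moved the members called between ROS+++ and ROS++ to 40 higher and 42 lower. They also turned the sign of the Slc15a2 difference between ROS+++ and ROS++ (0.031) and of the Slc25a4 differences between ROS+++ and ROS+ (0.065) and between ROS+++ and ROS++ (0.10). Trimmed mean of M values factors gave 0.0019 and 0.013 for the same Slc25a4 differences. In these libraries the factors raised ROS+++ values relative to library totals, and the cause was not tested. Leaving out 1 library at a time gave 12 to 22 members lower between ROS++ and ROS+, and the cause was not tested. The labels give no replicate numbers, but library numbers in the titles run in 5 sets of neighbours. Libraries of 1 set deviated together from their class means with r over 0.1 in 3 of 13 pairs (-0.022 to 0.231, across genes; other pairs -0.15 to 0.161), and 10 of 14 libraries correlated best with their own set. With these sets as a replicate block, a fit chosen after seeing the data, 68 members were called between ROS++ and ROS+, 140 between ROS+++ and ROS+ and 96 between ROS+++ and ROS++. Of the members given with values, the block ended the calls of Slc7a5 between ROS++ and ROS+ (adjusted p = 0.0695) and Slc25a45 between ROS+++ and ROS++ (adjusted p = 0.0541). Depth limits members near 0: 3 reads were worth up to 0.236 CPM, in ROS+++ replicate 4.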
